A study of Mus musculus with 7 samples.

Results

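MHC class II genes and Ciita were described in progenitors sorted from the bone marrow of mice with or without an Il10 transgene. The 10 genes, of 23930 in the count tables, are Ciita, the classical class II chains H2-Aa, H2-Ab1 and H2-Eb1, the invariant chain Cd74, the peptide exchange chains H2-DMa, H2-DMb1 and H2-DMb2, and the modulating chains H2-Oa and H2-Ob. They were taken as a named family whose levels in these same 7 libraries were already known, so their levels and differences are given as a description with no test. RNA abundance was measured by targeted sequencing, in which a commercial mouse transcriptome panel amplifies 1 short stretch of each gene. Levels are given as counts and as CPM (counts scaled to a common library total), and are compared between libraries within a gene and not between genes.

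The 4 groups were all from mice that drank zinc for 15 days, the BL/6 controls included. In pMT-10 mice an Il10 transgene stands under a metallothionein promoter that zinc induces, and the series describes these mice as overexpressing IL-10. Common myeloid progenitors (CMPs), a population with granulocyte, monocyte, erythroid and megakaryocyte potential, gave 2 pMT-10 and 2 BL/6 libraries. Lineage-negative cells positive for SCA-1, c-KIT, CD150 and CD48 (LSK CD150+CD48+), which are early multipotent progenitors, gave 2 libraries and haematopoietic stem cells (HSC) 1 library, all pMT-10. No BL/6 counterpart of the LSK CD150+CD48+ or HSC libraries was analysed here, and the labels give no gates for the CMP and HSC sorts. Sequencing used 2 chips, chip 1 for pMT-10 CMPs with LSK CD150+CD48+ cells and chip 2 for BL/6 CMPs with HSC, so strain and chip cannot be told apart in the CMPs. Whether replicate libraries stem from different animals is not in the labels, and the p-values therefore rest on a spread between samples that may be technical.

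MHC class II molecules present peptides from the endosomal route to CD4+ T cells, and among blood cells their constitutive expression is best known in B cells, dendritic cells and macrophages. CIITA, the product of Ciita, does not bind DNA itself but joins the RFX complex, NF-Y and CREB on a shared promoter module, whose X box is read by RFX and whose Y box by NF-Y, and so switches on the class II genes together. New alpha and beta chains pair around CD74, proteases trim CD74 to a fragment left in the groove, DM exchanges that fragment for peptide, and DO restrains DM.

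The promoter module is shown because it is where CIITA is known to act on the class II genes. The sequences below are RefSeq promoter windows of build GRCm38.p6 from 105 to 36 bases before the annotated start, each written 5′ to 3′ on the gene's strand. Capitals mark the letters GNAAC of the X box core and ATTGG of the Y box core. H2-Aa lies at chr17:34287859-34287928 on the minus strand, H2-Eb1 at chr17:34305762-34305831, H2-Oa at chr17:34092274-34092343 and H2-Ob at chr17:34238800-34238869, these 3 on the plus strand.
H2-Aa: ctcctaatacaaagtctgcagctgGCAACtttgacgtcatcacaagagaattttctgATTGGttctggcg
H2-Eb1: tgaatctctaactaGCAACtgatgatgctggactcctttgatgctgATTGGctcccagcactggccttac
H2-Oa: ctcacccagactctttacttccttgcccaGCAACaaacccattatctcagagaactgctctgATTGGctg
H2-Ob: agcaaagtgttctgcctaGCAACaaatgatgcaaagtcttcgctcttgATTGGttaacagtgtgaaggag

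In these 4 windows both cores stand on the gene's strand, with starts 30 to 33 bases apart. A search of the 250 bases before each start, on either strand, for GNAAC followed by ATTGG on the same strand with starts 28 to 36 bases apart found the pair in 5 of the 7 members in the promoter table, the fifth being H2-DMb1 with GTAAC. For H2-DMb1 the 70 bases from 105 to 36 before the RefSeq start, which hold the pair, lie in an exon of GENCODE vM21. They are therefore not printed, and that annotation starts the gene upstream of them, at 34153072. The pair occurred in 420 of all 32851 promoter windows, or 1.28%. The range of distances was set after the windows of the members had been seen. Each core alone is common: GNAAC was in 79.6% and ATTGG in 33.8% of windows. Neither of the windows of H2-DMa, nor that of H2-DMb2, held the pair in the stretch searched. H2-Ab1, Cd74 and Ciita had no entry in the promoter table. The H2-Oa and H2-Ob windows carry the pair as the H2-Aa and H2-Eb1 windows do, and the levels of these genes across the libraries, given next, were not alike.

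**Figure D1:**
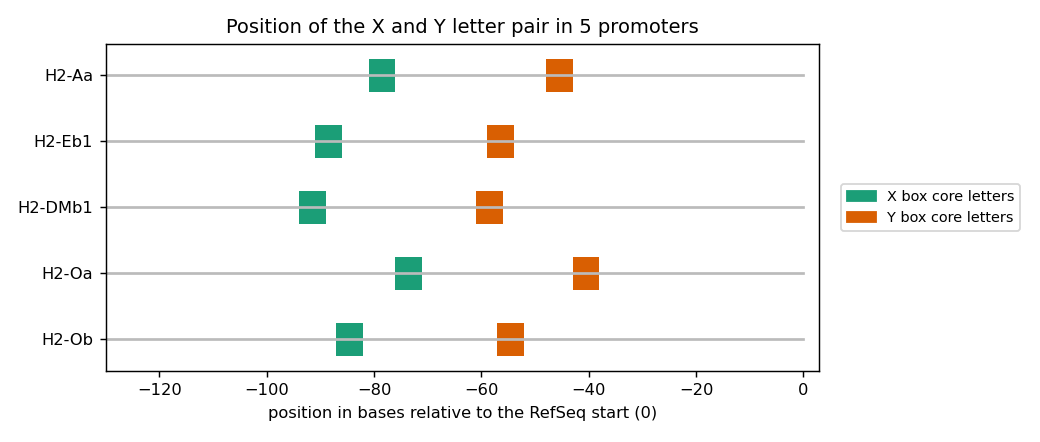
Position of the X core and the Y core relative to the annotated RefSeq start (0), in bases, for the 5 members whose promoter window held the pair, with 1 row per gene. The cores start 30 to 33 bases apart in every row, and in H2-DMb1 they lie in an exon of GENCODE vM21.

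Total counts ran from 7372430 to 13854314 per library, and 3 counts, the limit that a count of 0 allows, correspond to 0.216 to 0.397 CPM. Reads were amplified without molecular identifiers, so such limits cover counting error only. Il10 itself had at most 2 counts in any library. Sort markers were read against the labels: Procr (38.5 CPM), Mecom (47.6) and Fgd5 (26.2), genes typical of stem cells, were highest in the HSC library, where Cd48 stood at 6.48 CPM against 63.6 and 40.5 in LSK CD150+CD48+ cells. The whole stem cell list, 9 of 10 genes measured, went another way: it summed to 1365 CPM in HSC, 2026 and 2060 in the LSK CD150+CD48+ libraries, 1151 and 1095 in BL/6 CMPs and 504 and 430.3 in pMT-10 CMPs. Much of that was Gata2, at 257 CPM in HSC, 1447 and 1511 in the LSK CD150+CD48+ libraries and 763 and 732 in BL/6 CMPs, while Kit was highest in BL/6 CMPs (303 and 274 CPM, against 157 in HSC). Ly6a, which encodes SCA-1, was at 325 and 249 CPM in LSK CD150+CD48+ cells, 0.0923 and 2.02 in BL/6 CMPs and 19.4 and 28.04 in pMT-10 CMPs. Mpo, a myeloid granule gene, was at 6.02 to 16.8 CPM in the CMP libraries, 3.15 and 1.15 in the LSK CD150+CD48+ libraries and 0.265 in HSC. The CMPs of the strains differed in other markers of their label: by the edgeR quasi-likelihood test with Benjamini-Hochberg adjustment Csf2rb (3.42 ± 0.23 on the log2 scale, adjusted p = 0.00012), Elane (2.70 ± 0.39, adjusted p = 0.00249) and Fcgr3 (2.44 ± 0.40, adjusted p = 0.00368) were higher in pMT-10 CMPs. Gata2 (-1.60 ± 0.26, adjusted p = 0.00348), Kit (-1.29 ± 0.25, adjusted p = 0.00623) and Gata1 (-0.94 ± 0.25, adjusted p = 0.022) were lower there, and Ly6a (4.41 ± 0.60, adjusted p = 0.00218) and Cd48 (1.69 ± 0.33, adjusted p = 0.00641) higher. These marker calls were not repeated with a replicate left out, and the part of these markers in the class II values was not tested. The pair of pMT-10 CMP libraries differed more than the others (SD of the log2 difference across genes 0.639, against 0.356 for the LSK CD150+CD48+ pair and 0.260 for the BL/6 pair).

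**Figure D2:**
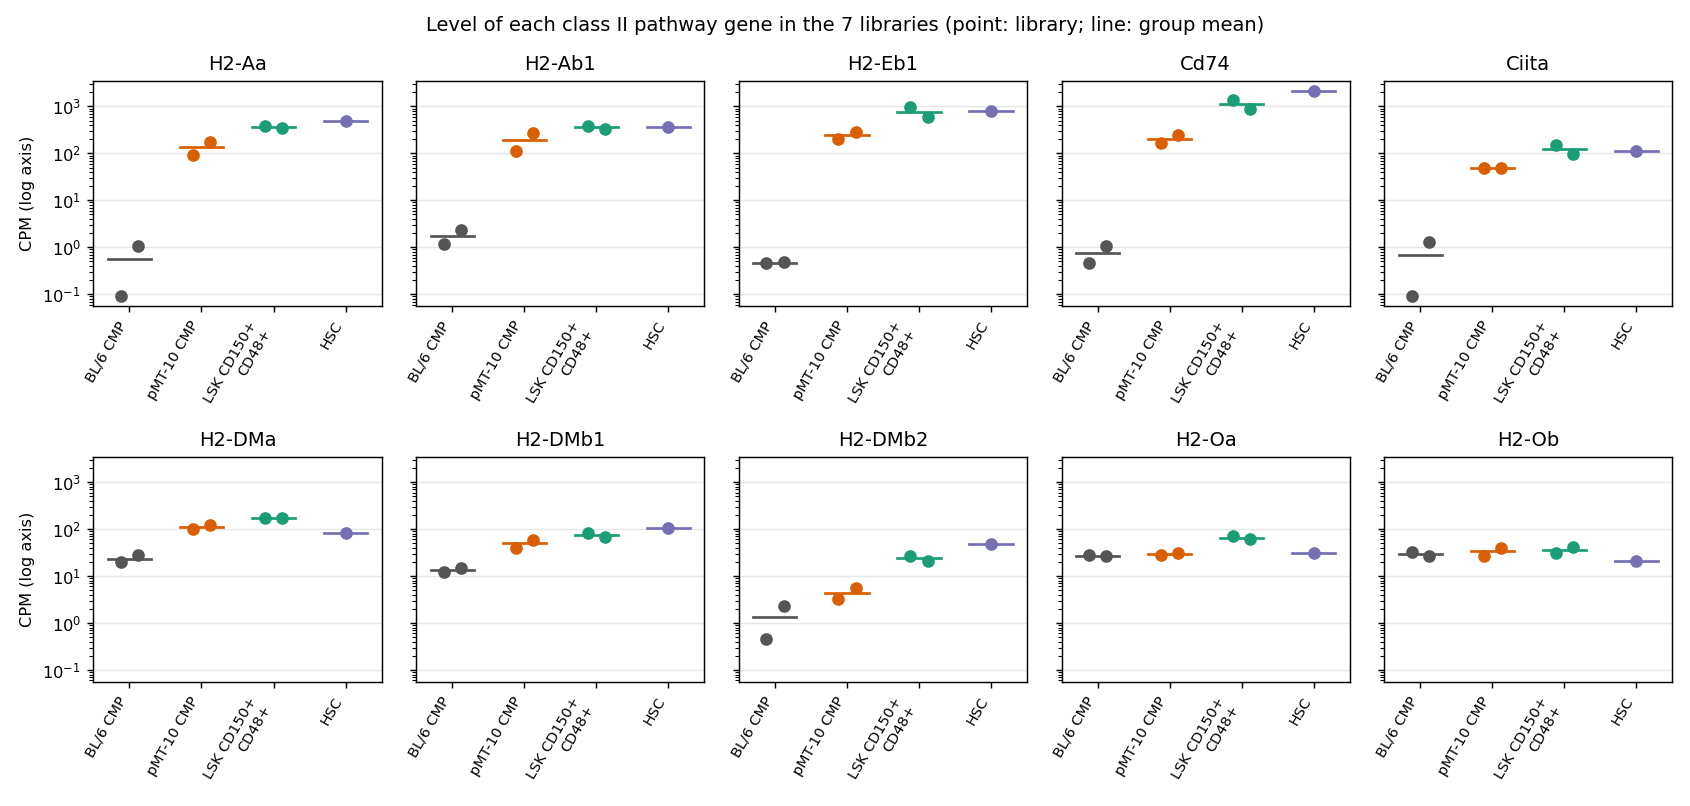
Level of each of the 10 genes in every library, as CPM on a log axis, 1 point per library, 1 colour per group and a line at the group mean. In 8 panels a gap separates both BL/6 CMP libraries from both pMT-10 CMP libraries, and the panels of H2-Oa and H2-Ob do not.

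Ciita, the classical chains and Cd74 were close to the counting limit in BL/6 CMPs and well above it in every pMT-10 library. Ciita, the transactivator, had 1 and 16 counts in the BL/6 CMP libraries and 451 and 416 in pMT-10 CMPs. As levels these were 0.0923 and 1.29 CPM in BL/6 CMPs, 49.7 and 48.2 in pMT-10 CMPs, 151 and 96.2 in the LSK CD150+CD48+ libraries and 110.2 in HSC. All 5 pMT-10 libraries lay above both BL/6 libraries, and the HSC library lay between those of LSK CD150+CD48+ cells. The log2 difference of pMT-10 from BL/6 CMPs was 6.06 ± 0.55 (SE of the fit, n = 2 each), and it rested on the BL/6 libraries: it was 5.23 without BL/6 replicate 1 and 8.87 without replicate 2. In bulk samples fewer cells that carry a transcript and less transcript per cell cannot be told apart, here or in any comparison that follows.

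H2-Aa, the classical alpha chain, went from 0.0923 and 1.05 CPM in BL/6 CMPs to 93.2 and 175 in pMT-10 CMPs. LSK CD150+CD48+ cells held it at 375 and 350 CPM and HSC at 494. The groups followed each other in that order without overlap, with 1 count in BL/6 replicate 1 and 13 in replicate 2. The log2 difference between the CMPs was 7.78 ± 0.57, and 6.97 or 10.32 when BL/6 replicate 1 or 2 was left out. H2-Ab1, the beta chain that pairs with it, was at 1.20 and 2.34 CPM in BL/6 CMPs, 110.5 and 269.8 in pMT-10 CMPs, 375 and 336 in the LSK CD150+CD48+ libraries and 359 in HSC. Its level in LSK CD150+CD48+ cells and in HSC did not separate, and the log2 difference between the CMPs was 6.72 ± 0.50, or 5.93 without pMT-10 CMP replicate 2 and 7.30 without BL/6 replicate 2. H2-Eb1, a second classical beta chain, had 5 and 6 counts in BL/6 CMPs (0.461 and 0.485 CPM) and 206 and 288 CPM in pMT-10 CMPs. It was at 952 and 594 CPM in LSK CD150+CD48+ cells and 797 in HSC, and its difference between the CMPs, 8.99 ± 0.41, was the largest of the 10. H2-Ea-ps, annotated as the pseudogene of the alpha chain that would pair with H2-Eb1, had 0 counts in all 7 libraries, an upper limit of 3 counts in each.

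Cd74, the invariant chain that escorts new class II molecules, was at 0.461 and 1.05 CPM in BL/6 CMPs and at 164 and 242 in pMT-10 CMPs. It stood at 1360.3 and 888 CPM in LSK CD150+CD48+ cells and at 2101 in HSC. No 2 groups overlapped for Cd74, and its differences were 8.02 ± 0.43 between the CMPs (8.75 without BL/6 replicate 2), 2.47 ± 0.30 from pMT-10 CMPs to LSK CD150+CD48+ cells and 0.90 ± 0.33 from those to HSC. The count of Cd74 per count of Ciita was 3.30 and 5.02 in pMT-10 CMPs, 9.01 and 9.23 in the LSK CD150+CD48+ libraries and 19.1 in HSC. In BL/6 CMP replicate 2 it was 0.8125, from 13 and 16 counts, and in replicate 1, with 5 and 1 counts, no ratio was formed. Such a ratio carries an unknown amplicon factor, so only its change between libraries can be read. For H2-Eb1 per Ciita the values of the pMT-10 libraries were closer together, 4.15 and 5.98, then 6.31 and 6.18, then 7.23. With 5 and 6 counts of H2-Eb1, none was formed in BL/6 CMPs.

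The DM chains were measured in BL/6 CMPs well above the counting limit, except H2-DMb2. H2-DMa, the alpha chain of the peptide exchange factor, was at 19.5 and 27.5 CPM in BL/6 CMPs, 98.5 and 124 in pMT-10 CMPs, 168 and 173 in the LSK CD150+CD48+ libraries and 84.5 in HSC. H2-DMb1, a DM beta chain, was at 12.4 and 14.5, 40.0 and 59.3, 83.9 and 66.5, and 107 CPM in the same order. For H2-DMb2, the other DM beta chain, the levels were 0.461 and 2.26, 3.20 and 5.44, 27.1 and 21.0, and 47.9 CPM. Both beta chains were highest in the HSC library, whereas H2-DMa was lower there than in any other pMT-10 library. The differences between the CMPs were 2.24 ± 0.23 for H2-DMa, 1.88 ± 0.26 for H2-DMb1 and 1.62 ± 0.57 for H2-DMb2, the last being 0.92 without BL/6 replicate 1 and 3.20 without replicate 2. H2-DMb1 and H2-DMb2 are close copies whose reads may be split between them, and H2-DMa overlaps Brd2 on the opposite strand in GENCODE vM21. The places of the amplicons were not used here.

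The ratios between DM chains differed between the sorted populations. H2-DMa counts per H2-DMb1 count ran from 1.57 to 2.60 in the 6 libraries other than HSC, where the ratio was 0.787. H2-DMb2 per H2-DMb1 was 0.156 in BL/6 replicate 2, 0.0799 and 0.0918 in pMT-10 CMPs, 0.323 and 0.316 in the LSK CD150+CD48+ libraries and 0.446 in HSC; in BL/6 replicate 1 H2-DMb2 had 5 counts and no ratio was formed.

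H2-Oa and H2-Ob, the chains of DO, overlapped between the CMPs of the strains. H2-Oa was at 27.5 and 27.1 CPM in BL/6 CMPs, 27.5 and 31.0 in pMT-10 CMPs, 69.8 and 61.4 in the LSK CD150+CD48+ libraries and 30.6 in HSC. It was highest in LSK CD150+CD48+ cells and within 27.1 to 31.0 CPM in the other groups. H2-Ob was at 31.8 and 26.8 CPM in BL/6 CMPs, 27.1 and 39.9 in pMT-10 CMPs, 30.3 and 40.9 in the LSK CD150+CD48+ libraries and 20.9 in HSC, where it was lowest. The differences between the CMPs were 0.10 ± 0.20 for H2-Oa and 0.19 ± 0.26 for H2-Ob. The count of H2-DMa per count of H2-Oa was 0.708 and 1.01 in BL/6 CMPs, 3.59 and 3.99 in pMT-10 CMPs, 2.42 and 2.82 in the LSK CD150+CD48+ libraries and 2.77 in HSC.

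**Figure D3:**
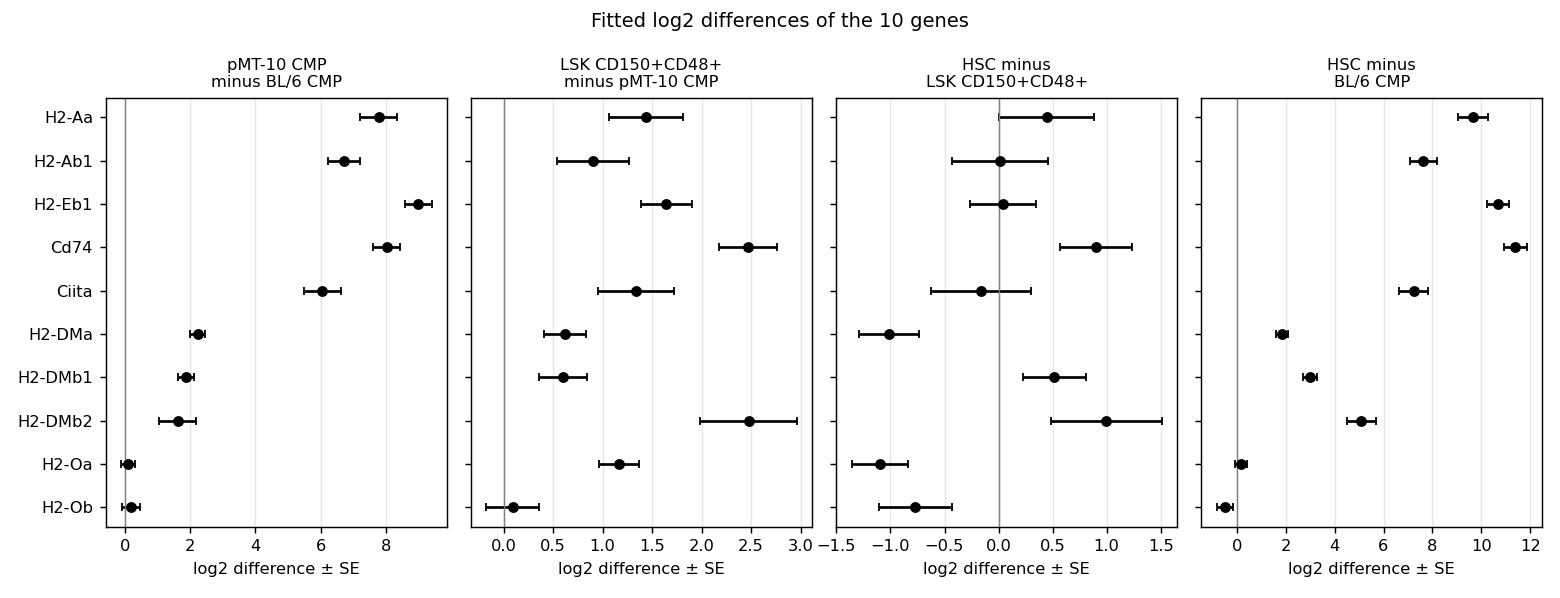
Log2 difference (point) with its SE (line) of each of the 10 genes in the comparisons made. The classical chains and Cd74 lie between 6.72 and 8.99 for pMT-10 against BL/6 CMPs, the DM chains between 1.62 and 2.24, and the DO chains at 0.10 and 0.19.

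Between the CMPs, 8 of the 10 genes had both pMT-10 libraries above both BL/6 libraries and 0 had them below. Of the 11429 genes tested, 33.2% were higher and 33.7% lower by that rule, and 28.0% passed an adjusted p of 0.05 (edgeR quasi-likelihood test, Benjamini-Hochberg), but the 10 genes were chosen with this contrast known and nothing is read from their count. All 10 passed the filter on low counts, those near the counting limit in BL/6 CMPs through the pMT-10 libraries. Their median difference was 4.15, against 0.01 over all genes tested. The 10 genes together took 0.00929 and 0.0102% of all counts in BL/6 CMPs, 0.0831 and 0.131% in pMT-10 CMPs, 0.349 and 0.264% in the LSK CD150+CD48+ libraries and 0.426% in HSC. Within the pMT-10 CMP pair, replicate 2 was the higher for 9 of the 10 genes, by up to 2.44 times for H2-Ab1, and Ciita was the exception at a ratio of 0.969.

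The LSK CD150+CD48+ libraries were compared with pMT-10 CMPs on the same chip. They share the pMT-10 CMP libraries with the comparison of the CMPs, so the values of both comparisons are not independent. Cd74 and H2-DMb2 had the largest differences, 2.47 ± 0.30 and 2.47 ± 0.49, or 5.53 and 5.55 times. H2-Eb1 differed by 1.64 ± 0.26, H2-Aa by 1.44 ± 0.37, Ciita by 1.33 ± 0.39 and H2-Oa by 1.16 ± 0.20. H2-DMa was at 0.62 ± 0.22 and H2-DMb1 at 0.60 ± 0.24, and H2-Ob (0.09 ± 0.26) overlapped. H2-Ab1 was at 0.90 ± 0.37, a value that rested on the CMP libraries: leaving out CMP replicate 1 gave 0.40 and leaving out replicate 2 gave 1.68. Both LSK CD150+CD48+ libraries were above both pMT-10 CMP libraries for 9 of the 10 genes, where 27.8% of all tested genes were, and 0 of the 10 were below, where 27.9% were. By the edgeR test 11.8% of all genes passed, 5.92% higher and 5.92% lower. H2-Oa was thus higher in LSK CD150+CD48+ cells than in pMT-10 CMPs, while its levels overlapped between the CMPs of the strains, which were read on different chips. In HSC it was at 30.6 CPM, within the range of the CMPs.

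The single HSC library was set beside the LSK CD150+CD48+ libraries, with an SE that assumes it varies like the other groups. It was read on the other chip, so population and chip cannot be told apart here. The genes were not all on one side. H2-DMb2 (0.996 ± 0.51), Cd74 (0.90 ± 0.33), H2-DMb1 (0.52 ± 0.29) and H2-Aa (0.44 ± 0.44) were above both LSK CD150+CD48+ libraries. H2-Oa (-1.10 ± 0.26), H2-DMa (-1.01 ± 0.28) and H2-Ob (-0.77 ± 0.34) were below both. H2-Ab1 (0.01 ± 0.44), H2-Eb1 (0.04 ± 0.31) and Ciita (-0.16 ± 0.46) lay between them. Of all tested genes 45.4% were higher and 41.6% lower by this rule, which a single library meets easily, and 18.8% passed the edgeR test, 10.6% higher and 8.14% lower.

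HSC and BL/6 CMPs were read on one chip, though they differ in strain and in population. Both BL/6 CMP libraries also serve in the comparison of the CMPs, so the values of these comparisons are not independent. The HSC library exceeded both BL/6 CMP libraries for 9 of the 10 genes, and 45.0% of all tested genes did. It was lower for 1 gene, as for 45.7% of all tested genes, and 20.3% passed the edgeR test, 11.8% higher and 8.50% lower. The log2 difference was 11.39 ± 0.48 for Cd74, 10.68 ± 0.43 for H2-Eb1, 9.66 ± 0.61 for H2-Aa, 7.63 ± 0.54 for H2-Ab1 and 7.23 ± 0.59 for Ciita. The value of H2-Eb1 ran from 10.60 to 10.74 over 7 alternatives. The others rested on the BL/6 libraries: without BL/6 replicate 1 or 2 they were 10.90 and 12.06 for Cd74, 8.81 and 12.15 for H2-Aa, 7.20 and 8.16 for H2-Ab1 and 6.35 and 9.98 for Ciita. H2-DMb2 differed by 5.09 ± 0.59 (4.35 and 6.61 without BL/6 replicate 1 or 2), H2-DMb1 by 2.995 ± 0.29 and H2-DMa by 1.84 ± 0.26. H2-Oa was at 0.16 ± 0.25, and H2-Ob was below both BL/6 libraries (-0.49 ± 0.34).

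Within 224 kb of chromosome 17 lie 8 of the 10 genes, from 34092340 to 34316674 (GRCm38, GENCODE vM21), and Ciita lies on chromosome 16 from 10480059 to 10528418. In chromosomal order they are H2-Oa, H2-DMa, H2-DMb2, H2-DMb1, H2-Ob, H2-Ab1, H2-Aa and H2-Eb1, so that H2-Oa and H2-Ob, with differences of 0.10 and 0.19 between the CMPs, flank the DM genes and H2-Ob adjoins H2-Ab1 at 6.72. Genes of other function stand among them, of which Brd2, Psmb9, Tap1, Psmb8 and Tap2 were tested. The tested neighbours reach beyond the 224 kb, from 33955812 at Vps52 to 34613449 at Agpat1, and H2-K1 lies outside it. Between the CMPs, 5 of 15 tested neighbours were higher and 1 was lower by the edgeR test, where 14.3% and 13.7% of all tested genes were. Those called were the tested genes that stand among the members, and H2-K1. Psmb9 and Psmb8, subunits of the immunoproteasome, rose by 2.95 ± 0.26 (edgeR adjusted p = 0.000507) and 1.72 ± 0.27 (adjusted p = 0.00314), and Tap1, which carries peptides to class I molecules, rose by 1.65 ± 0.19 (adjusted p = 0.00136). Psmb9 overlaps Tap1 in the annotation. Tap2 (0.80 ± 0.16, adjusted p = 0.00807) and the class I gene H2-K1 (0.54 ± 0.17, adjusted p = 0.0388) also rose, and Brd2, a chromatin reader, fell (-1.28 ± 0.23, adjusted p = 0.00504); these 3 calls were lost without BL/6 replicate 1 (adjusted p = 0.126, 0.306 and 0.0528).

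**Figure D4:**
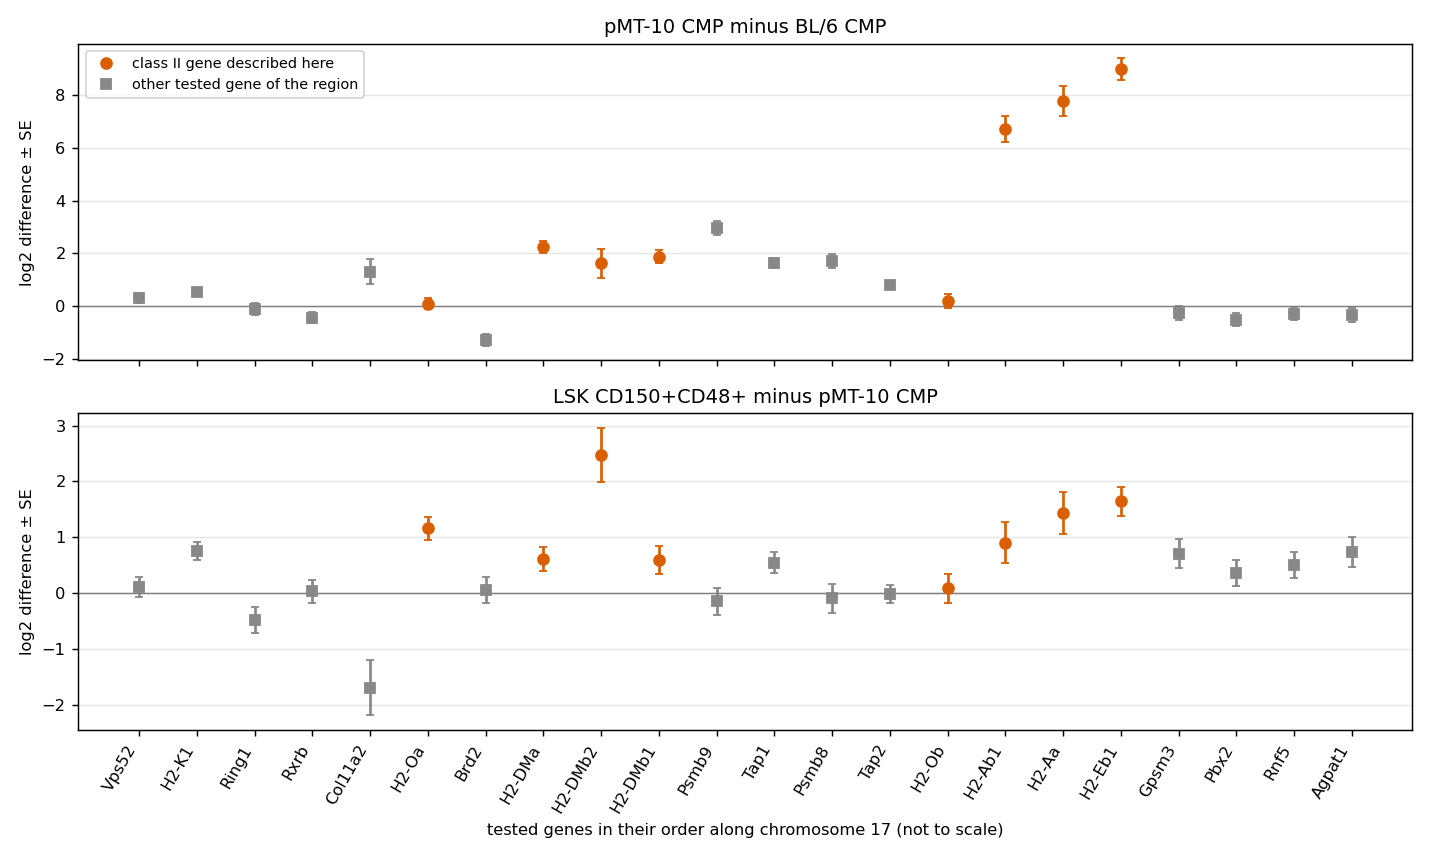
Log2 difference of pMT-10 from BL/6 CMPs, and of LSK CD150+CD48+ cells from pMT-10 CMPs, for 22 genes in their order in and around the class II region. Of these, 8 are described here and 14 are neighbours above 3 counts in all 6 libraries compared. The large values of the first comparison sit at H2-Ab1, H2-Aa and H2-Eb1, while H2-Oa and H2-Ob lie near 0.

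Genes of the rest of the class II pathway and of its region were read from 7 lists, of which 52 were tested. All 52 are called pathway genes below, though 15 are the neighbours in and around the class II region, genes of other function. Between the CMPs 14 of the 52 were higher and 7 lower, where 14.3% and 13.7% of all tested genes were. The neighbours gave 5 of the 14 (Psmb9, Psmb8, Tap1, Tap2 and H2-K1) and 1 of the 7 (Brd2). Upstream of Ciita, Irf1, a transcription factor that interferon-γ induces and that acts on the Ciita gene, was at 63.2 and 76.1 CPM in BL/6 CMPs and at 420 and 331 in pMT-10 CMPs. It rose by 2.43 ± 0.20 on the log2 scale (edgeR adjusted p = 0.000403), and by a further 0.73 ± 0.19 in LSK CD150+CD48+ cells (adjusted p = 0.0416). The second call was lost without LSK CD150+CD48+ replicate 1 or 2 (adjusted p = 0.236 and 0.151) and with the replicate block. Nlrc5, the class I counterpart of Ciita, rose by 1.64 ± 0.24 between the CMPs (adjusted p = 0.00262), from 75.4 and 65.0 to 190 and 249 CPM. Of the 8 tested genes from interferon-γ to Ciita 3 were higher and 2 lower. Ifngr2, a receptor chain, rose by 1.38 ± 0.35, and Irf2, of the same family as Irf1, and the kinase Jak1 fell by 1.10 and 0.65. Those 3 calls were lost without BL/6 replicate 1 (adjusted p = 0.106, 0.0564 and 0.241). Ifngr1 (-0.80 ± 0.30), Jak2 (0.13 ± 0.19) and Usf1 (0.39 ± 0.20) did not pass, and Ifng had 0 counts in every library.

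Of 11 tested genes of the promoter complex that CIITA joins and its coactivators 2 were higher and 2 lower between the CMPs, beside 14.3% and 13.7% of all tested genes, and nothing is read from that count. Rfxap, an RFX subunit, fell by 1.22 ± 0.22 (edgeR adjusted p = 0.00476, and 0.076 without BL/6 replicate 1), while Rfxank, another subunit, rose by 0.96 ± 0.30 (adjusted p = 0.0413, and 0.226 without it). Rfx5, the DNA-binding subunit, was at -0.14 ± 0.24 and did not pass, and neither did Nfya (-0.05 ± 0.19), Nfyb (-0.34 ± 0.19) or Creb1 (-0.11 ± 0.20). The acetyltransferase genes Ep300 and Crebbp went opposite ways, Ep300 lower by -1.28 ± 0.19 (adjusted p = 0.00261) and Crebbp higher by 0.76 ± 0.19 (adjusted p = 0.0191, and 0.164 without BL/6 replicate 1).

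Downstream, 3 of 8 tested genes of lysosomal processing (Ifi30, Ctss and Ctsh) were higher and 2 (Ctsc and Ctsd) lower between the CMPs, beside 14.3% and 13.7% of all tested genes. None of the 5 calls held without BL/6 replicate 1, and those of the 4 cathepsins were lost without replicate 2 as well (adjusted p for the cathepsins from 0.0571 to 0.238). Ifi30, a thiol reductase of the endosome, rose by 1.25 ± 0.23 (edgeR adjusted p = 0.00553, and 0.0836 without BL/6 replicate 1) and fell by 1.22 ± 0.23 in LSK CD150+CD48+ cells (adjusted p = 0.0126), where Cd74 was higher. Ctss, the protease that finishes the trimming of CD74, had 14 and 14 counts in BL/6 CMPs, 32 and 42 in pMT-10 CMPs, 0 and 0 in the LSK CD150+CD48+ libraries and 37 in HSC. Its call between the CMPs (adjusted p = 0.0379) was lost without BL/6 replicate 1 (0.207), with DESeq2 and with the replicate block. The LSK CD150+CD48+ cells, at the higher levels of Cd74 given above, thus showed no Ctss reads, with an upper limit of 3 counts per library. Ctsl, an alternative protease of that step, was at -0.21 between the CMPs and did not pass (adjusted p = 0.532). Lgmn, an asparagine endopeptidase, had at most 8 counts in any library. March8, a ubiquitin ligase that removes class II from the surface, was at 50.1 to 52.7 CPM in all CMPs, 35.2 and 39.6 in the LSK CD150+CD48+ libraries and 7.28 in HSC. It fell by 2.36 ± 0.29 from LSK CD150+CD48+ cells to HSC (adjusted p = 0.00156) and was lower than in BL/6 CMPs on the same chip by a log2 difference of -2.79 ± 0.29 (adjusted p = 0.000311).

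Genes that deliver the second signal to T cells were scarce. Cd80 had at most 3 counts and Cd40 at most 5 in any library. Cd86 had 4 and 2 counts in BL/6 CMPs, 0 and 0 in pMT-10 CMPs, 9 and 3 in the LSK CD150+CD48+ libraries and 59 in HSC. Icosl had 9 and 2, 15 and 17, 16 and 9, and 47 counts in the same order. Pdcd1lg2 had 0 counts in all CMPs, 1 and 1 in the LSK CD150+CD48+ libraries and 22 in HSC. Tnfsf4 was lowest in HSC, with 9 and 11 counts in BL/6 CMPs, 1 and 5 in pMT-10 CMPs, 17 and 16 in the LSK CD150+CD48+ libraries and 0 in HSC. Cd274, which encodes the inhibitory ligand PD-L1, was at 8.49 and 7.59 CPM in BL/6 CMPs, 28.5 and 46.3 in pMT-10 CMPs, 43.2 and 32.1 in the LSK CD150+CD48+ libraries and 68.8 in HSC. It rose by 2.22 ± 0.30 between the CMPs (edgeR adjusted p = 0.00209) and was the 1 costimulation gene of 6 tested that passed there.

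Of the 21 pathway calls between the CMPs, 7 held under all 11 alternatives tried: Cd274, Ep300, Irf1, Nlrc5, Psmb8, Psmb9 and Tap1. Beside the cathepsins, those of Ifngr2, Jak1, Rfxank, Crebbp, Tap2 and H2-K1 were lost without BL/6 replicate 2 as well (adjusted p from 0.0985 to 0.2095), and that of Rfxank also without pMT-10 CMP replicate 2 (0.0938). From pMT-10 CMPs to LSK CD150+CD48+ cells 4 of the 52 tested pathway genes were higher (Irf1, Irf2, Ctsc and H2-K1) and 3 lower (Ifi30, Ctss and Ctsh), beside 5.92% and 5.92% of all tested genes, and all 7 calls were lost when either LSK CD150+CD48+ library was left out. Between those cells and HSC 6 of 52 were higher and 5 lower in HSC, beside 10.6% and 8.14% of all tested genes, and 2 were called without either LSK CD150+CD48+ library. Against BL/6 CMPs 11 of 52 were higher in HSC and 3 lower, beside 11.8% and 8.50% of all tested genes, among them Irf1 (3.17 ± 0.23, adjusted p = 7.56e-05), Cd274 (3.10 ± 0.34, adjusted p = 0.000391) and Psmb9 (2.001 ± 0.29, adjusted p = 0.00171) higher on the one chip, and 8 or 7 were called without BL/6 replicate 1 or 2.

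**Figure D5:**
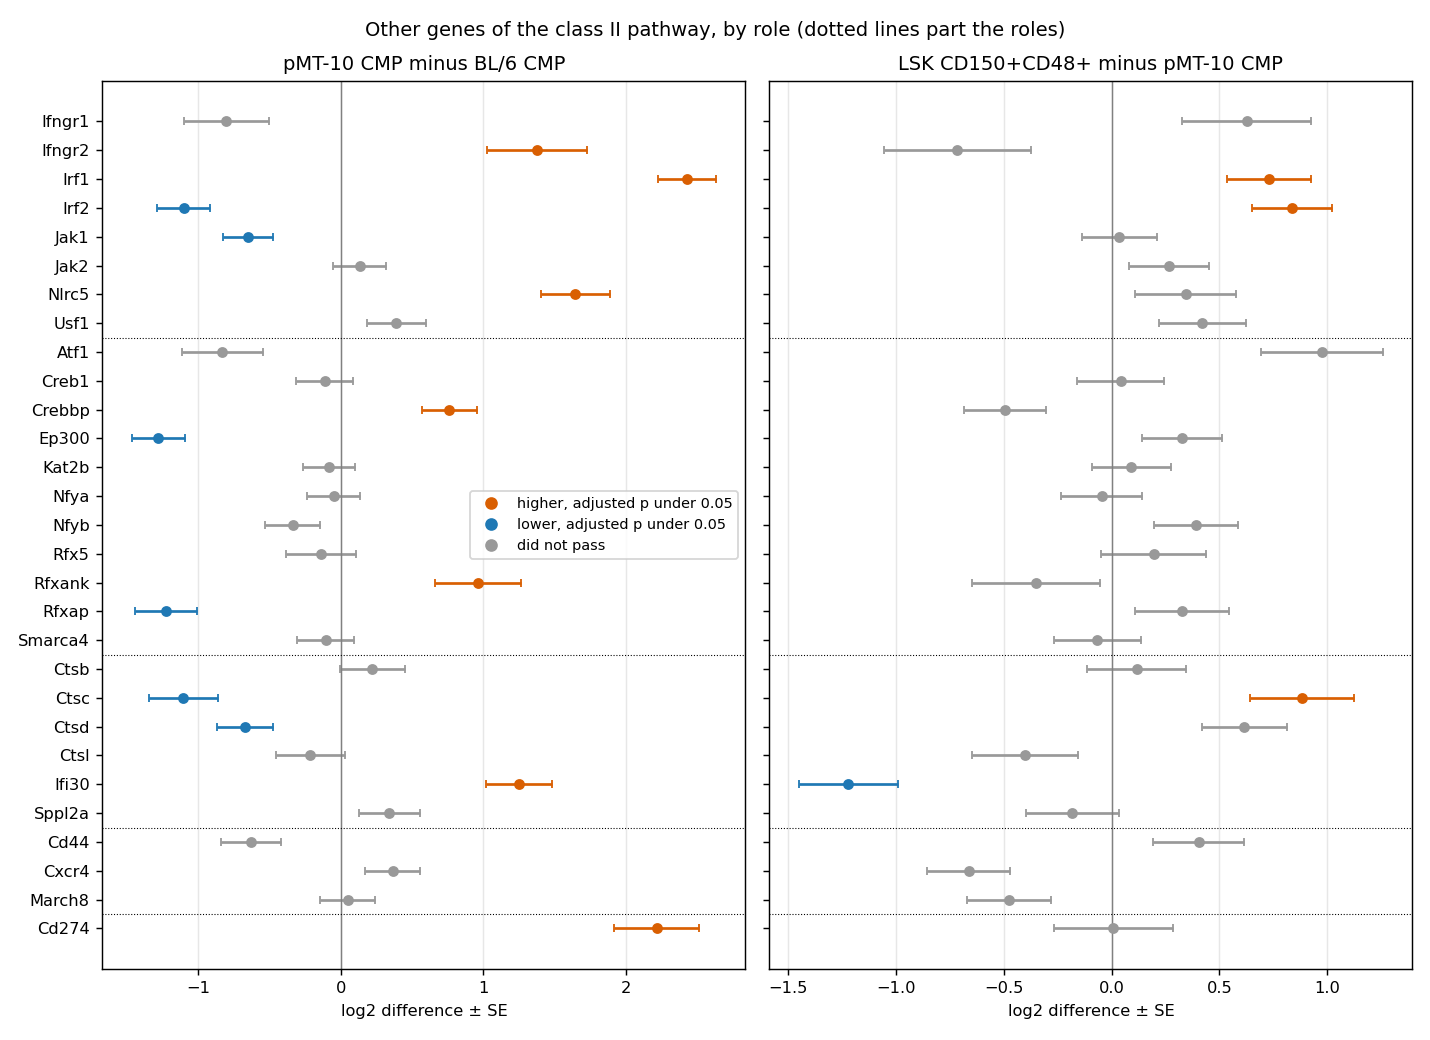
Log2 difference with SE for 29 of 36 pathway genes outside the class II region, those above 3 counts in all 6 libraries compared, grouped by role from the interferon-γ route at the top to costimulation at the bottom. Colours mark edgeR calls at an adjusted p of 0.05, and the largest difference between the CMPs among the genes plotted is that of Irf1.

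Markers of cells known for class II expression were read beside these values. In the B cell list, 11 of 12 markers were measured, and their summed level was 15.9 to 17.5 CPM in BL/6 CMPs, 11.5 to 20.3 in pMT-10 CMPs, 16.9 to 17.8 in the LSK CD150+CD48+ libraries and 52.7 in HSC. Nearly all of it was Cd79b, at 52.3 CPM in HSC and 11.0 to 19.1 elsewhere. Ebf1 and Vpreb3 were at 0 in every library. The 12 dendritic cell markers summed to 154 to 157 CPM in BL/6 CMPs, 325 to 332 in pMT-10 CMPs, 225 to 271 in the LSK CD150+CD48+ libraries and 228 in HSC. Most of that was Bst2, which interferons also induce, at 93.6 to 107 CPM in BL/6 CMPs and 275 to 287 in pMT-10 CMPs. Bst2 rose between the CMPs by 1.49 ± 0.18 (edgeR adjusted p = 0.00162). Clec10a had 9 and 19 counts in BL/6 CMPs, 24 and 39 in pMT-10 CMPs, 28 and 35 in the LSK CD150+CD48+ libraries and 8 in HSC. Its difference between the CMPs, 1.58 ± 0.55 (edgeR adjusted p = 0.060), did not pass. Zbtb46 (-0.12 ± 0.24), Flt3 (-0.64 ± 0.46) and Itgax (-0.98 ± 0.78) did not pass either. Zbtb46, a factor typical of conventional dendritic cells, was at 30.7 and 34.6 CPM in BL/6 CMPs, 28.2 and 31.97 in pMT-10 CMPs, 9.81 and 12.9 in the LSK CD150+CD48+ libraries and 1.59 in HSC. Flt3, a receptor of their progenitors, was at 17.3 and 22.2, 17.6 and 7.65, 0.351 and 1.44, and 1.06 CPM in the same order. Xcr1, Cd209a, Siglech, Batf3 and Ccr9 were at 0 in all 7 libraries, and Itgax had 11 and 26 counts in BL/6 CMPs, 8 and 6 in pMT-10 CMPs, 0 and 0 in the LSK CD150+CD48+ libraries and 1 in HSC. The macrophage and monocyte list, 11 of 12 measured, summed to 17.7 to 18.5 CPM in BL/6 CMPs, 12.5 to 30.8 in pMT-10 CMPs, 14.6 to 19.3 in the LSK CD150+CD48+ libraries and 18.8 in HSC, with C1qc at 0 throughout. Of the macrophage and monocyte markers, Csf1r was at 2.03 and 1.45 CPM in BL/6 CMPs and 5.62 and 4.17 in pMT-10 CMPs. Its difference, 1.49 ± 0.51 (edgeR adjusted p = 0.0544), did not pass. Neither did Cd68 (0.11 ± 0.71), Ccr2 (0.40 ± 0.87) or Cd163 (-0.12 ± 0.35). The T cell and innate lymphoid markers summed to 2.26 to 10.1 CPM over the 7 libraries, with Cd3d, Ncr1 and Il2ra at 0. Of the dendritic cell markers tested, Bst2 and Clec10a were higher with class II in pMT-10 CMPs, Clec10a without passing. Zbtb46, Flt3 and Itgax were not higher there. The part of these markers in the result was not tested.

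Genes whose profile over the 7 libraries was most like that of Ciita were picked by Pearson's r of log2(CPM + 1) among 7576 genes. They were Irf1 (r = 0.995), Gm12250 (0.992), Serpine2 (0.991), Gm12185 (0.988), Gnb2 (0.987), Usp18 (0.985), Calhm2 (0.985) and Ptpn18 (0.984). The same measure among the described genes gave 0.993 for H2-Aa and for H2-Eb1, 0.989 for H2-Ab1, 0.988 for Cd74, 0.970 for H2-DMb1, 0.956 for H2-DMa, 0.855 for H2-DMb2, 0.595 for H2-Oa and 0.0349 for H2-Ob. Against the mean z-score of the 10 genes the first were Anapc13 (0.997), Nod1 (0.995) and Tmub1 (0.991). These correlations are descriptions over 7 libraries, of which the 2 BL/6 CMP libraries share the low end, and the libraries share chip and population within groups.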

How the data were processed

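Libraries had been made from total RNA of FACS-sorted cells with RNeasy Micro and the Ion AmpliSeq Transcriptome kit for mouse (per the labels). The authors deposited raw read counts per gene, 1 table for each chip. Per the submitters' processing notes the genome was mm10; aligner and counter: not given in the sources used here. The 10 genes and all lists were chosen with earlier results of these data known.

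The model was fitted with edgeR 4.0.16 (R 4.3.3). filterByExpr (minimum count 10) left 11429 of 23930 genes, TMM scaled the totals, and 1 fit of 4 group means over 7 libraries left 3 residual degrees of freedom. P-values come from the quasi-likelihood F-test with Benjamini-Hochberg adjustment across the tested genes, and calls are at an adjusted p under 0.05. The scripts were tested on simulated data. CPM values use TMM-scaled totals. Named genes are the 10, a fixed set of pathway genes, up to 3 further called genes with the smallest p per pathway list, the 8 most alike to Ciita and to the 10 genes' mean, and other cells' markers at or near 0 or highest. Of 73 entries in the pathway lists (which hold old and new symbols) 62 were in the tables. Alternatives were DESeq2 1.42.0, other scaling and filters, a replicate block, and each replicate left out in turn. Promoter windows are from RefSeq (GRCm38.p6).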

Additional observations from a re-analysis of the deposited data

How the results depend on the processing

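Of 360 values of the 10 genes' differences under alternatives, 352 kept their sign and 8 turned, all of small differences (H2-Ob between the CMPs and against LSK CD150+CD48+ cells, H2-Ab1, H2-Eb1 and Ciita between HSC and LSK CD150+CD48+ cells). With each replicate left out in turn, genes called ran from 582 to 5268 between the CMPs, 44 to 4274 for LSK CD150+CD48+ cells against pMT-10 CMPs, 266 to 352 between HSC and LSK CD150+CD48+ cells, and 815 to 918 between HSC and BL/6 CMPs. Pathway genes called ran from 7 to 28, 0 to 23, 2 to 2 and 7 to 8 in the same order, and the 10 genes' median difference from 3.62 to 5.25 between the CMPs, -0.16 to 0.31 between HSC and LSK CD150+CD48+ cells, and 5.35 to 7.38 for HSC against BL/6 CMPs. In the first 2 comparisons genes called were fewest without replicate 1 of BL/6 CMPs or of LSK CD150+CD48+ cells and most without pMT-10 CMP replicate 1; the cause was not tested. For LSK CD150+CD48+ cells against CMPs, DESeq2 called 11 pathway genes, and no filter on low counts gave 2237 genes and 15 pathway genes. For HSC against LSK CD150+CD48+ cells no filter gave 19 pathway genes and a minimum count of 50 gave 7. With the replicate number as a block and without HSC, 2979 genes and 22 pathway genes were called between the CMPs (median of the 10 genes 4.17), and 1181 and 6 for LSK CD150+CD48+ cells against CMPs (1.25). The labels only share a number, and deviations of same-numbered libraries correlated at -0.041, -0.014 and -0.0997 across the tested genes. Such a correlation cannot show whether same-numbered libraries share an animal, which the labels do not say. With a floor of 10 counts in place of 3, 5 in place of 8 of the 10 genes were above it in BL/6 CMP replicate 1. Depth limits the BL/6 levels of Ciita, H2-Aa, H2-Eb1, H2-DMb2 and Cd74 most.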
